A study of Drosophila erecta with 23 samples.

Results

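In the embryonic time course of Drosophila erecta, 115 transcription start site clusters (TSCs) had most of their signal in the 4 hours from 11 to 15 h after egg laying. A TSC is a group of neighbouring 5′ ends of capped RNAs and stands for a promoter. Signal was counted in RPM, the reads of a TSC per 1000000 reads in all TSCs of a library. The members were chosen by their RPM values: a TSC was taken when it was assigned to an annotated gene, reached at least 20 RPM in some library, and had more than 50% of its summed RPM in the libraries of 11-12, 12-13, 13-14 and 14-15 h. The rule read 20 of the 23 libraries and put aside those of 4-5, 5-6 and 7-8 h. It kept 115 (1.57%) of the 7323 gene-assigned TSCs that reached 20 RPM, out of 13329 gene-assigned TSCs and 22632 TSCs in all. These TSCs are called the members. They lay at 114 positions, because 1 cluster was entered under 2 genes, and belonged to 106 genes.

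The embryos were whole, untreated animals of the wild-type reference genome strain, collected over 1 h each, the first sample at 0-1 h and the last at 22-23 h, and assayed by RAMPAGE, which sequences cDNAs that reach the 5′ end of the RNA. Each window had 1 sample and therefore no replicate, so the values below are a description of 1 time course. All samples were barcoded at reverse transcription and sequenced as a single library. The depth was 142224 (7-8 h) to 13882184 reads in TSCs (0-1 h) with a median of 3402363, and 1043634 to 6735630 reads at 11-15 h. A whole embryo mixes all cell types, so more cells of a type and more RNA per cell cannot be told apart, and neither can maternal RNA and RNA made by the embryo.

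RAMPAGE places the start of a transcript at single bases, so that separate promoters of one gene are counted separately. In Drosophila the middle of embryogenesis is the time when the germ band has retracted, the dorsal side closes, the head turns inward, and the muscles, gut, nervous system and epidermis take on their differentiated form. The epidermis and the tracheal tubes then start to lay down the matrix that becomes the larval cuticle. Genes that act in such a passing step are often transcribed for a short time, and a gene with several promoters can use one of them at a single stage. The deposited tables list the genes of D. erecta by identifiers that they do not pair with names, so the TSCs are described by their positions on the scaffolds of FlyBase release 1.3 and by 2 identifiers, and no role is given for any of them.

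The TSCs differed by orders of magnitude in level. Their highest RPM lay between 20.1 and 17664, with a median of 76.4 and quartiles of 36.9 and 176. Of the 115, 52 reached 100 RPM and 8 reached 1000 RPM. The rule set the floor of these values, and the highest library of each TSC counted from 27 to 20575 reads of it, with a median of 155. For 24 TSCs that library held fewer than 50 reads, so the shape of these weaker profiles was read with little precision. The share of summed RPM at 11-15 h ran from 50.1% to 87.4% with a median of 58.8%. It was over 60% in 53 TSCs and over 75% in 13. The mean RPM at 11-15 h was 4.02 to 27.7 times the mean of the other 16 libraries, with a median of 5.71. These figures describe the choice and are not evidence for it.

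The heatmap of all members, sorted by the hour of the maximum, shows one band that moves to the right, which the rule and the sorting produce. Of the 115 TSCs, 17 were highest at 11-12 h, 22 at 12-13 h, 20 at 13-14 h, with 55, the most, at 14-15 h, and 1 was highest at 15-16 h, just after the window. A typical TSC was at or above 50% of its own maximum in 3 libraries, and the number ran from 1 to 7. The signal was still high after the window more often than before it: 79 TSCs were higher at 15-16 h than at 10-11 h, and 36 were lower. Through the window, 28 TSCs rose at every step of the 4 libraries and 6 fell at every step, while 28 had a dip at 13-14 h below both neighbours and 27 a peak there. The library of 13-14 h was the deepest of the 4, with 6735630 reads.

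**Figure D1:**
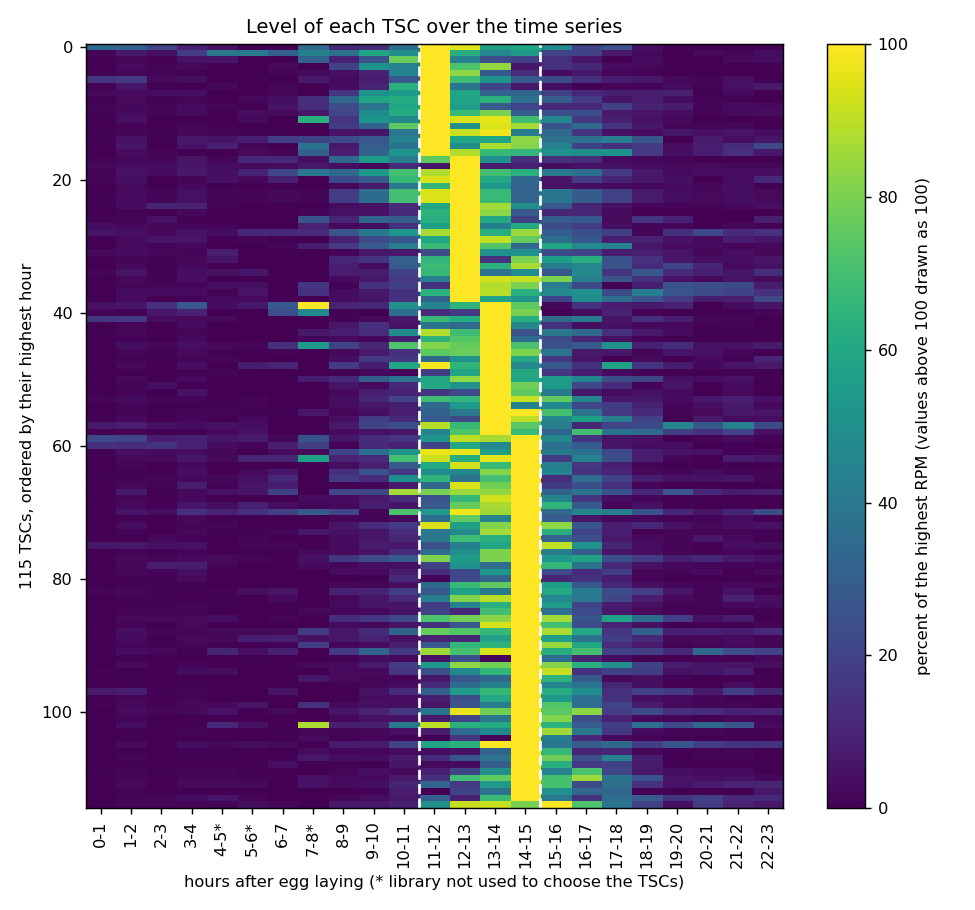
Level of the 115 TSCs in the 23 libraries. Each line across is 1 TSC, ordered by the hour of its maximum, and each column is 1 library in hours after egg laying. The colour is the RPM as a percent of the highest RPM of the TSC in the 20 libraries of the rule. Dashed lines bound 11-15 h, and 55 TSCs have their maximum in the last column of that window.

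Grouped by the hour of the maximum, the members gave the following median courses, whose order in time is fixed by the grouping. In the 17 TSCs highest at 11-12 h, the median level was 31.4% of the maximum at 9-10 h and 49.3% at 10-11 h, and after the maximum 63.1% at 12-13 h, 58.7% at 13-14 h, 36.4% at 14-15 h, then 24.3% at 15-16 h. In the 55 TSCs highest at 14-15 h, it was 4.74% at 9-10 h, 9.55% at 10-11 h, 27.8% at 11-12 h, 51.5% at 12-13 h, then 66.4% at 13-14 h. These later TSCs were still at 55.4% of their maximum at 15-16 h and 28.8% at 16-17 h. Set to each group's own maximum, the level 1 h before it was 49.3% in the TSCs highest at 11-12 h and 66.4% in those highest at 14-15 h. The hour before 11-12 h lies outside the window and the hour before 14-15 h inside it. The rule thus favours a low value in the first group and a high one in the second, and nothing is drawn from the difference. The 22 TSCs highest at 12-13 h had the highest median maximum, 134 RPM, against 101 RPM for those highest at 14-15 h, 54.3 RPM for 11-12 h and 50.9 RPM for 13-14 h.

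A pair of TSCs stood above all others in level. The strongest, of the gene FBgn0106864, lay at 1305535 to 1305796 of scaffold 4784 on the minus strand and was the only TSC of its gene. It measured 2273 RPM at 10-11 h, 4499 at 11-12 h, 11737 at 12-13 h, 16472 at 13-14 h, then 17664 at 14-15 h, where the 95% Wilson interval of the 20575 reads was 17426 to 17905 RPM. It then stood at 7887 RPM at 15-16 h, 2691 at 16-17 h and 34.9 at 22-23 h. In RPM the level therefore climbed through the whole window and was under 50% of its maximum 1 h later. RPM divided by TMM factors, 1.13 at 14-15 h and 0.944 at 15-16 h, would show a smaller fall. The Wilson interval, like all given here, covers counting error only, since reads of amplified cDNA are not independent molecules.

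The second, of the gene FBgn0102971, lay at 18541166 to 18541381 of scaffold 4929 on the plus strand. It measured 4282 RPM at 11-12 h, 6546 at 12-13 h, 6221 at 13-14 h, 7893 at 14-15 h, 6464 at 15-16 h, then 5022 at 16-17 h. Its share at 11-15 h was 53.9%, against 75.3% for the strongest TSC. With TMM factors its share was 44.5% and with DESeq2 size factors 44.7%, under the limit of the rule, while that of the strongest TSC was 71.9% and 72.3%. In RPM it was still at 331 RPM at 22-23 h. It was thus, in RPM, the broader of the pair, with 6 libraries at or above 50% of its maximum, against 3.

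Of the other 6 TSCs over 1000 RPM, 4 were also highest at 14-15 h. The third in level, at 8279182 to 8279315 of scaffold 4784 on the minus strand, was earlier: it measured 2387 RPM at 11-12 h, 3701 at 12-13 h, 3069 at 13-14 h, then 1035 at 14-15 h. Its share was 84.6%, and it was at 435 RPM at 10-11 h and 401 at 15-16 h. The fourth, at 609511 to 609638 of scaffold 4644 on the minus strand, measured 1992 RPM at 11-12 h, 3070 at 12-13 h, 2220 at 13-14 h, then 3298 at 14-15 h. Its low value at 13-14 h came from the deepest of the 4 libraries. The fifth, at 10182935 to 10182991 of scaffold 4784 on the minus strand, came late, with 235 RPM at 11-12 h, 1029 at 12-13 h, 1380 at 13-14 h, 2952 at 14-15 h, then 2532 at 15-16 h. The sixth, at 51921 to 51974 of scaffold 4644 on the plus strand, measured 1075, 1296, 2353 and 2737 RPM in the 4 libraries from 11-12 to 14-15 h, and 1714 RPM at 15-16 h.

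The seventh and the ninth in level were neighbours. They lay on the plus strand of scaffold 4784 at 13390001 to 13390043 and at 13388034 to 13388073, 1927 bp apart, and were assigned to different genes. The first of the pair measured 1036 RPM at 11-12 h, 1173 at 12-13 h, 1596 at 13-14 h, then 561 at 14-15 h, and the second 187, 105, 676 and 973 RPM in the same order. The 2 profiles overlapped but did not match: Pearson's r was 0.615 over the 20 libraries. Other neighbouring members at separate positions had r from 0.860 to 0.986, among them 2 pairs of different genes, 15319 and 12216 bp apart, with 0.904 and 0.918. The rule chose all of them for the same 4 libraries, so a high r is built in. The eighth, at 6206664 to 6206747 of scaffold 4784 on the minus strand, measured 393 RPM at 11-12 h, 1082 at 12-13 h, 1228 at 13-14 h, then 1413 at 14-15 h, and 927 RPM at 15-16 h.

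**Figure D2:**
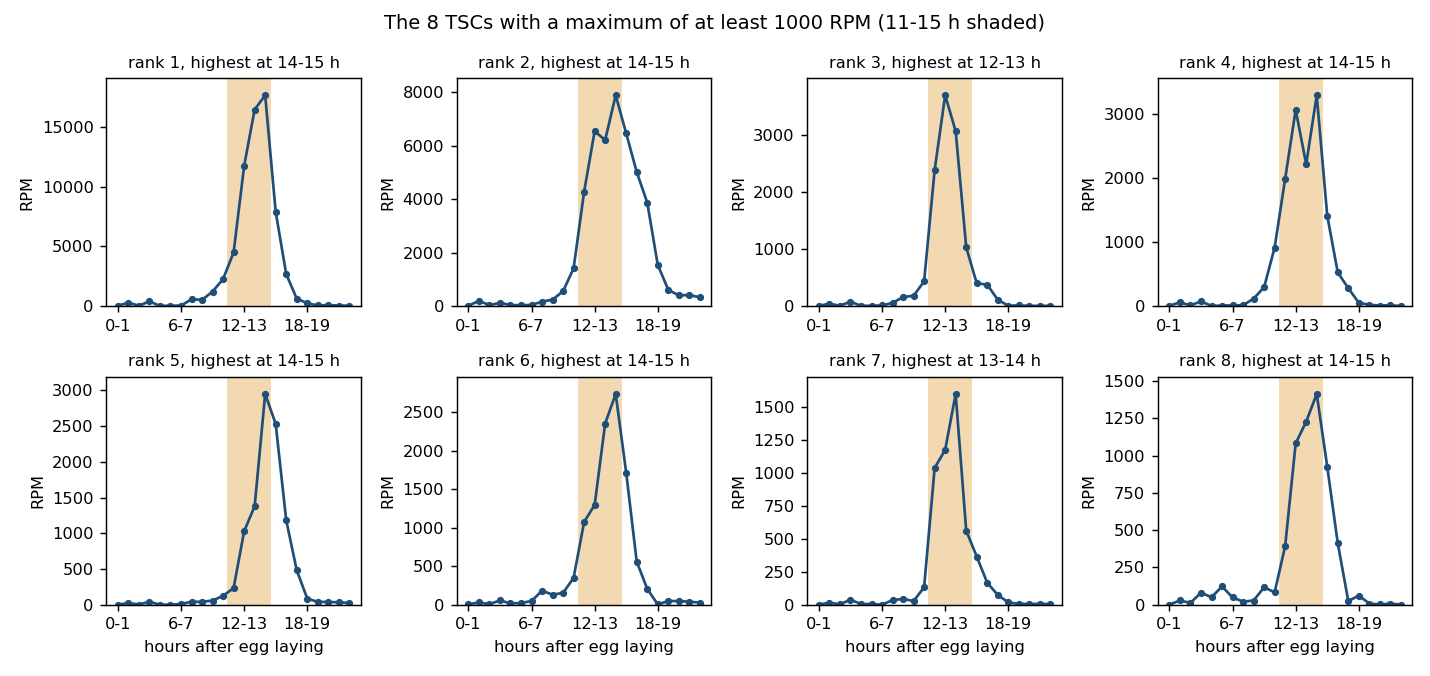
RPM of the 8 TSCs that reached 1000 RPM against hours after egg laying, 1 point per library, with 11-15 h shaded and a separate axis for each TSC. Rank 3 was highest at 12-13 h, rank 7 at 13-14 h and the other 6 at 14-15 h, and rank 2 kept 5022 RPM at 16-17 h.

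Below 1000 RPM the profiles became more varied. The tenth TSC in level, at 17367662 to 17367798 of scaffold 4784 on the plus strand, climbed evenly, with 327, 458, 749 and 931 RPM from 11-12 to 14-15 h. At 17776884 to 17776908 of scaffold 4929 on the plus strand, a 25-bp TSC measured 13.7, 20.1, 134 and 423 RPM in the same 4 libraries and 282 RPM at 15-16 h, and was thus far higher in the last 2 hours of the window than in the first 2. The highest of the TSCs with a maximum at 11-12 h, at 18516523 to 18516571 of scaffold 4784 on the plus strand, ran the other way: 226, 188, 62.2 and 28.3 RPM, after 102 RPM at 10-11 h. The second and the third of that group, at 21085341 to 21085363 of scaffold 4929 and 21559016 to 21559088 of scaffold 4845, both on the plus strand, had maxima of 178 and 113 RPM. Of the TSCs highest at 13-14 h, the second in level, at 10623808 to 10623906 of scaffold 4929 on the plus strand, was broad, with 161, 224, 271 and 160 RPM in the window, beside 103 RPM in the hour before and 149 RPM in the hour after. The 11th of all, at 13668979 to 13669012 of scaffold 4770 on the plus strand, and the 20th, at 5418925 to 5419235 of scaffold 4929 on the minus strand, were highest at 14-15 h with 740 and 296 RPM and were uneven before that. The first of them measured 145, 381 and 264 RPM and the other 97.1, 50.8 and 159 RPM at 11-12, 12-13 and 13-14 h. The only TSC highest at 15-16 h, at 8642579 to 8642613 of scaffold 4929 on the plus strand, was nearly level from 12-13 to 15-16 h, with 39.3, 39.2, 34.3 and 42.9 RPM. It was at 72.0% of its maximum at 16-17 h and 38.4% at 17-18 h.

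The cluster entered under 2 genes lay at 6187543 to 6187572 of scaffold 4820 on the minus strand. It measured 381, 403, 271 and 128 RPM from 11-12 to 14-15 h, after 283 RPM at 10-11 h. Both entries hold the same reads, so it is 1 measurement. Among TSCs highest at 12-13 h, those at 16320193 to 16320256 of scaffold 4929 and at 8968464 to 8968573 of scaffold 4690, both on the plus strand, had maxima of 387 and 322 RPM and were also high before the window, with 163 and 226 RPM at 10-11 h.

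In 3 TSCs more than 50% of the summed RPM came from 1 library, and the shallow libraries of 12-13 h and 14-15 h were the ones concerned. The TSC at 8251704 to 8252375 of scaffold 4845 on the plus strand, at 672 bp the widest of the 115, measured 35.7 RPM at 11-12 h, 625 at 12-13 h, 46.6 at 13-14 h, then 56.7 at 14-15 h. The 31-bp TSC at 4483253 to 4483283 of scaffold 4929 on the plus strand measured 20.5, 99.7, 6.53 and 410 RPM in the same order. The TSC at 4043231 to 4043262 of scaffold 4845 on the plus strand measured 1.90, 38.3, 3.41 and 244 RPM. The last 2 thus alternated, high at 12-13 and 14-15 h and low at 11-12 and 13-14 h. The peaks held 652, 477 and 284 reads, but reads of amplified cDNA are not independent molecules, so the number of molecules behind them is not known. No second sample of these hours could show whether the pattern recurs.

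The 10 largest shares at 11-15 h ran from 75.9% to 87.4% and came mostly from TSCs of moderate level. The largest, 87.4%, belonged to the TSC at 15584548 to 15584582 of scaffold 4845 on the minus strand, which measured 7.59, 23.95, 41.1 and 24.9 RPM from 11-12 to 14-15 h, and was low just before and after, at 0.588 and 6.48 RPM. The TSC at 22008777 to 22008836 of scaffold 4845 on the plus strand, with 83.3%, measured 101, 213, 126 and 282 RPM, beside 6.47 RPM at 10-11 h and 80.5 RPM at 15-16 h. That at 5387508 to 5387736 of scaffold 4929 on the plus strand, with 78.3%, measured 64.1, 56.5, 166 and 78.1 RPM. All 3 were under 10 RPM at 10-11 h. The remaining 5 of the 10 outside the 8 highest had maxima from 28.3 to 152 RPM.

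The 50% limit cut through a smooth slope of values. The 3 TSCs just inside it, at 5405407 to 5405684 and 9600187 to 9600481 of scaffold 4784 and 5724317 to 5724378 of scaffold 4690, had shares of 50.1%, 50.4% and 50.1%. The 3 just outside, at 169554 to 169625 of scaffold 4512, 5144040 to 5144125 of scaffold 4929 and 19672488 to 19672589 of scaffold 4845, had 49.98%, 49.9% and 49.7%. Shares over 50% and up to 55% were held by 41 TSCs, and 70 lay between 45% and 50%. Over all 7323 TSCs that reached 20 RPM the median share was 20.1% with quartiles of 13.7% and 25.4%, close to the 20% that 4 of 20 equal libraries would hold. The members are therefore the far end of a continuous range. By level, the members nearest the limit had 20.1, 20.8 and 20.9 RPM, and 37 TSCs with a share over 50% stayed out because their maximum lay between 10 and 20 RPM. The count of 115 also depended on the scale: 63 of the members met the rule with TMM factors and 61 with DESeq2 size factors in place of RPM. It depended on each library of the window as well, with 70 members left without 11-12 h, 67 without 12-13 h, 63 without 13-14 h, then 59 without 14-15 h.

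Together the 115 TSCs held a growing and then shrinking part of the reads. Their share of all reads in TSCs was 0.452% at 9-10 h, 0.896% at 10-11 h, 2.23% at 11-12 h, 3.82% at 12-13 h, 4.30% at 13-14 h, 4.84% at 14-15 h, 2.80% at 15-16 h, 1.48% at 16-17 h, 0.764% at 17-18 h, then 0.306% at 18-19 h. The 95% interval at 14-15 h was 4.81% to 4.88%. The mean over the 4 libraries of 11-15 h was 3.80%. The strongest TSC alone made up 20.1% to 38.3% of these reads at 11-15 h, and without it the mean was 2.54%. The sum of the others then read 1.78%, 2.65%, 2.65% and 3.08% from 11-12 to 14-15 h, so that it was level between 12-13 and 13-14 h. In the typical member, the level as a percent of its own mean at 11-15 h had a median of 70.3%, 94.0%, 104% and 114% in the same libraries, 56.5% at 15-16 h, 37.9% at 16-17 h, 20.1% at 17-18 h, 9.13% at 18-19 h, then 3.51% at 22-23 h.

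**Figure D3:**
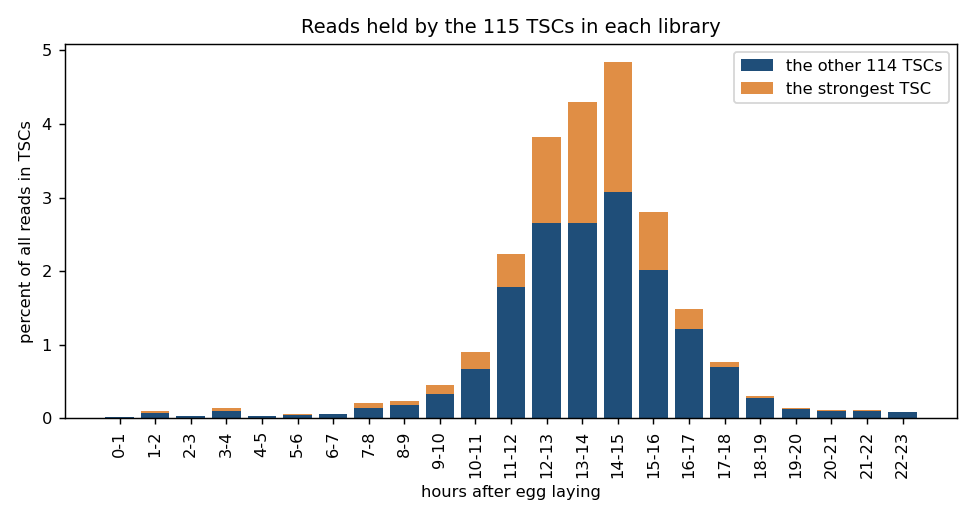
Percent of all reads in TSCs that fell in the 115 members, by library in hours after egg laying, with the strongest TSC drawn on top of the other 114. The bars reach 4.84% at 14-15 h, are 2.80% at 15-16 h and are at most 0.306% at every hour up to 8-9 h and from 18-19 h on. They count both entries of the cluster entered under 2 genes.

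Change over time was also fitted for the whole table with limma, a smooth curve over the 23 libraries on log2(RPM + 1), with Benjamini-Hochberg adjustment. All 115 members passed the filter on low counts and 114 were called at an adjusted p under 0.05. Over all TSCs tested, 87.4% were called (13082 of 14966), and since the rule read the same profiles nothing is drawn from the members' count. The one not called, at 847584 to 847598 of scaffold 4784 on the minus strand, had an adjusted p of 0.0536 in limma and a maximum of 45.3 RPM at 13-14 h.

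In the libraries of the first hours the members held a small part of the reads, 0.103% (7974 reads) at 1-2 h. At 1-2 h the members were at a median of 3.36% of their mean at 11-15 h, with quartiles of 2.10% and 4.67%, while they were at 0.516% at 0-1 h and 1.21% at 2-3 h. The median was 3.23% at 3-4 h, and it was 1.47% at 4-5 h, 0.946% at 5-6 h, then 0.598% at 6-7 h. The level at 1-2 h was above both neighbouring hours in 94 of 115 members (81.7%), against 32.6% of the 7208 other gene-assigned TSCs of at least 20 RPM. The level at 3-4 h was above both 2-3 h and 4-5 h in 69 members (60%), against 21.4% of the other TSCs. These hours were outside the window but inside the rule, apart from 4-5 h, so the shares are given as a description with no test.

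The early values were higher in members with more signal at 11-15 h. The strongest TSC measured 39.0 RPM at 0-1 h, 287 at 1-2 h, 42.1 at 2-3 h, 401 at 3-4 h, then 19.1 at 4-5 h. The second measured 17.6, 194, 40.5, 122 and 43.3 RPM, the third 5.33, 42.4, 7.39, 80.02 and 4.42 RPM, and the fourth 7.20, 59.1, 12.7, 74.1 and 5.01 RPM in the same 5 libraries. In each of the 4, both 1-2 h and 3-4 h thus stood above 0-1 h, 2-3 h and 4-5 h. Across the 115 members Spearman's rho between the RPM at an early hour and the mean RPM at 11-15 h was 0.395 at 0-1 h, 0.771 at 1-2 h, 0.601 at 2-3 h, 0.768 at 3-4 h, then 0.454 at 6-7 h. It was 0.770 at 8-9 h. In the 7208 other TSCs the same rho was 0.621 at 0-1 h, 0.681 at 1-2 h, 0.636 at 2-3 h, 0.704 at 3-4 h, then 0.739 at 6-7 h. At 8-9 h it was 0.821 in these TSCs, above that of the members, so a positive rho was not particular to the members. Members are not independent and share each library, so no p is given. The libraries held 13882184 reads at 0-1 h, 7720734 at 1-2 h, 3923227 at 2-3 h, with 5698586 at 3-4 h, and the part of depth in the early values was not tested. All samples were sequenced as 1 library and each hour had 1 collection, and whether these reads came from transcription at the labelled age was not tested either. Among the 52 members that reached 100 RPM, a group chosen after seeing the data, 86.5% had the peak at 1-2 h. No value for other TSCs of this level stands beside it, so nothing is drawn from it.

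**Figure D4:**
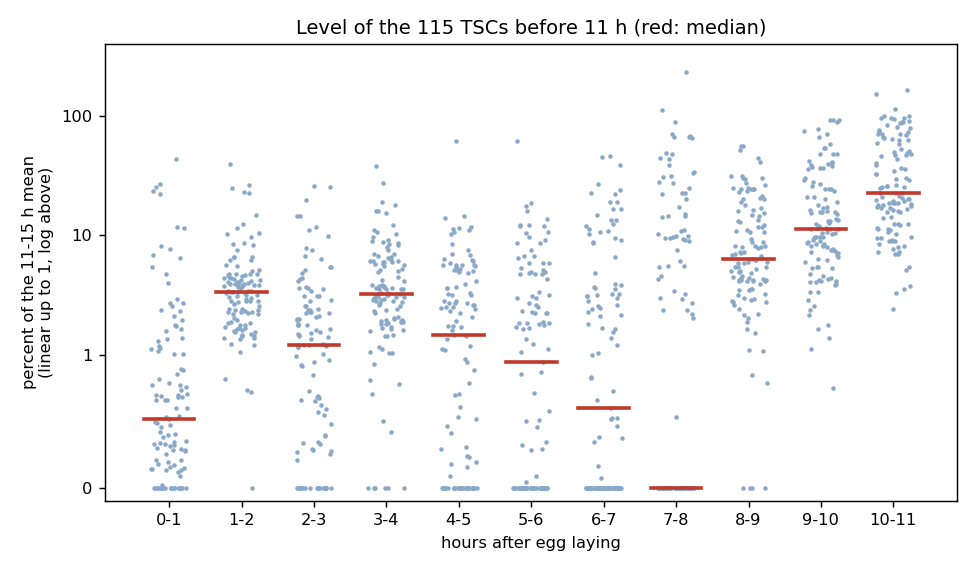
RPM of the 115 members before 11 h as a percent of their own mean at 11-15 h, by hour after egg laying, 1 point per TSC and a red bar for the median, on an axis that is linear up to 1 and logarithmic above. The medians are 0.516% at 0-1 h, 3.36% at 1-2 h, 1.21% at 2-3 h, then 3.23% at 3-4 h, and the middle 50% of the points at 1-2 h lie between 2.10% and 4.67%.

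In the 3 libraries that the rule had not read, the members were low. At 4-5 h, 33 of the 115 had no read, at 5-6 h 44 and at 7-8 h 58. The members held 0.0372% of the reads at 4-5 h, 0.0509% at 5-6 h and 0.202% at 7-8 h, next to 0.133% at 3-4 h, 0.0574% at 6-7 h and 0.238% at 8-9 h. A single read was worth 7.03 RPM at 7-8 h and a count of 0 allowed up to 21.1 RPM (3 reads), so most members could not be measured there. There 2 members exceeded their mean at 11-15 h, one of them at 14571165 to 14571215 of scaffold 4770 with 42.2 RPM against a mean of 17.9 RPM, the other at 9339838 to 9339858 of scaffold 4690 with 21.1 against 18.9 RPM. Both had been just above 20 RPM at their maximum, 25.2 and 24.04 RPM, and the values at 7-8 h rest on a few reads.

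The members were narrow. They had a median width of 54 bp, against 102 bp for the other 7208 TSCs, and 27.8% of them, against 9.64%, were under 30 bp. Their reads over the whole series had a median of 1290, against 3184.5, while the median of the highest RPM was alike, 76.4 against 79.4 RPM. The part of the lower read number in the difference in width was not tested. The member was the only TSC of its gene in 52.2% of cases, against 54.9%. In genes with several TSCs, the member had the most reads of the whole series in 20 of 55 cases (36.4%), against 73.0% of the other TSCs. By highest RPM, a measure chosen after seeing the data, it was the first of its gene in 25 of 55 cases (45.5%), against 73.2%. Because the rule requires most of the signal in 4 libraries, it lowers the reads of the whole series, and nothing is drawn from either count. The plus strand held 47.8%, against 50.9%, and the distance to the next TSC had a median of 916.5 bp, against 448 bp.

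Members were spread over 9 of the 18 scaffolds with TSCs of at least 20 RPM. Scaffold 4784 held 31 (27.0%), against 20.2% of the other TSCs, scaffold 4820 held 17 (14.8%, against 8.92%) and scaffold 4690 held 9 (7.83%, against 14.0%). A single run of neighbours stood out: 5 members on scaffold 4512 belonged to 1 gene, which had 16 TSCs on the minus strand over 12586 bp. These 5 had maxima of 22.0, 90.4, 42.9, 41.2 and 36.9 RPM and shares of 56.5%, 54.97%, 52.0%, 58.9% and 61.2%, in order of position from 164986 to 171368. The strongest TSC of that gene, at 175626 to 175795, was upstream of them and not a member, with 669 RPM at 12-13 h and a share of 44.4%. Of the 16 TSCs, 12 had a share over 40%, so the gene as a whole was high in these hours, and the largest share, 67.8%, belonged to a TSC that did not reach 20 RPM.

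The 106 genes fell into 60 with a single TSC, 3 whose several TSCs were all members, and 43 with a member and at least 1 other TSC. In the 43, the member TSCs held a median of 71.6% of the gene's reads at 11-15 h, against 27.8% in the other 19 hours. Their part was higher at 11-15 h in 37 of the 43 genes and higher by at least 25 percentage points in 15, with a median difference of 12.5 points. They held more than 50% of the reads in 26 genes at 11-15 h, against 15 genes in the other hours. The rule made the member high in this window, so these differences describe the choice. Over the 43 genes the strongest other TSC had a median of 33.4% of its RPM at 11-15 h, and 13 of these partners were highest between 0 and 4 h, 20 at 11-15 h and 10 at another hour. Of the 29 partners that reached 20 RPM, 10 were highest between 0 and 4 h, 9 at 11-15 h and 10 at another hour, with a median share of 26.9%. Their share could not exceed 50%, since such a TSC would itself be a member. The partner was thus highest early in some genes and in the window in others.

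**Figure D5:**
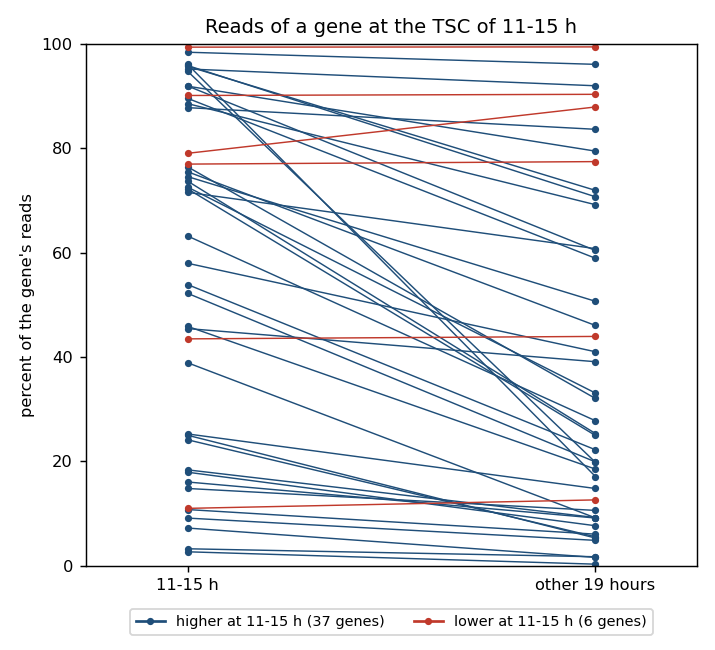
Percent of a gene's reads in TSCs that fell in its member TSCs, at 11-15 h on the left and in the other 19 hours on the right, 1 line per gene for the 43 genes with a member and another TSC. In 37 genes the value is higher at 11-15 h and in 6 it is lower, and the median is 71.6% at 11-15 h against 27.8%.

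Among the 29 genes, 5 changed most in pooled reads, where deep libraries such as that of 0-1 h weigh most. By summed RPM, a rank chosen after seeing the data in which each library weighs alike, 4 of these were among the first 5 and the fifth gene described here was the seventh. In the first, the member at 10359394 to 10359541 of scaffold 4845 on the plus strand held 96.1% of 206 reads at 11-15 h (95% interval 92.5% to 98.0%), against 17.1% of 2043 reads in the other hours (15.5% to 18.8%). Its partner lay 1583 bp upstream, was highest at 0-1 h with 70.1 RPM and had 1.93% of its RPM at 11-15 h. The member itself reached 28.3 RPM. By the hour, the member held 2.89% of the gene's 1002 reads at 0-1 h, 30% of 50 at 9-10 h and 66.7% of 18 at 10-11 h. It then held 84.6% of 26 reads at 11-12 h, 98.4% of 129 at 13-14 h and 95.6% of 68 at 15-16 h. At 10-11 h the 95% interval was 43.7% to 83.7%, with the member at 3.53 RPM and the partner at 1.76 RPM. The member's part was therefore already growing before the window and stayed high after it.

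The second gene showed the same with the positions turned round. Its member, at 1474011 to 1474156 of scaffold 4784 on the minus strand, lay 9373 bp upstream of the partner and held 94.8% of 173 reads at 11-15 h, against 19.8% of 1626 reads in the other hours. The partner was again highest at 0-1 h, with 58.3 RPM, while the member reached 20.1 RPM. In the third, on the plus strand of scaffold 4690 at 15200063 to 15200163, the member held 73.7% of 274 reads at 11-15 h, against 25.3% of 1489 reads in the other hours, and its partner 1117 bp upstream was highest at 2-3 h. In the fourth, on the plus strand of scaffold 4845 at 6756528 to 6756555, the member held 72.2% of 1178 reads, against 24.9% of 2497, and its partner 5440 bp upstream was highest at 1-2 h. Each of these 4 partners was highest in the first 3 hours, but not all were low in the window. The partner 5440 bp upstream measured 12.5, 1.92, 36.2 and 41.2 RPM from 11-12 to 14-15 h. It had 26.9% of its RPM at 11-15 h, against 3.05% and 11.9% for the partners 9373 and 1117 bp away. The member of that gene held 97.4% of its reads at 12-13 h and 69.3% at 13-14 h.

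The fifth gene had the strongest member of the 5. That TSC, at 13635506 to 13635571 of scaffold 4845 on the minus strand, reached 558 RPM at 14-15 h, and its partner 2241 bp upstream reached 185 RPM at 0-1 h. The member held 76.5% of 2804 reads at 11-15 h (74.9% to 78.0%), against 32.0% of 10043 reads in the other hours (31.1% to 33.0%). By the hour its part was 0% of 2574 reads at 0-1 h, which allows up to 0.117% (3 reads), then 13.3% at 10-11 h, 51.0% at 11-12 h, 67.2% at 12-13 h, 75.3% at 13-14 h, 88.8% at 14-15 h, 84.6% at 15-16 h, 72.3% at 16-17 h, 33.9% at 18-19 h, then 1.09% at 20-21 h. The member was ahead of the partner from 11-12 h to 17-18 h, where its part was 71.4%.

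In 2 further genes, chosen after their values were seen, the members remained close to or under 50% of the reads at 11-15 h. The gene of the fifth strongest TSC had 3 TSCs, 2 of them members, and their reads made up 44.7% at 11-12 h, 51.9% at 12-13 h, 46.4% at 13-14 h, 41.7% at 14-15 h, then 42.3% at 15-16 h, beside 36.9% at 1-2 h. In the gene on scaffold 4512 the 5 members held 24.2%, 17.5%, 26.2% and 30.8% in the 4 libraries of 11-15 h, beside 28.0% at 10-11 h and 9.17% at 15-16 h.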

How the data were processed

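RAMPAGE reads of 23 libraries, 1 per hour of development, were analysed from the tables the authors deposited. The authors mapped the reads with STAR (version not given in the sources used here) to FlyBase release 1.3 of D. erecta, pooled the reads of the series to call TSCs with a peak caller of their own, and took out clusters on rDNA. The deposited values are RPM per TSC. All 379172 values above 0 were whole multiples of 1 read within 0.001 read (100%), so reads were recovered from them, and depth, which limits the precision, is given with the results. The deposited gene table in RPM was used only for checks. All of its 185320 values were whole, and the summed TSC reads of a gene equalled exactly 1 of its entries in all 23 libraries for 58 of the 106 genes with a member (54.7%), against 66.1% of the genes with a TSC of at least 20 RPM. The 2 tables use different identifiers, so the other genes could not be compared, and percentages of a gene's reads refer to its listed TSCs. The TSC list gave positions, written 1-based, and a score per TSC that the authors do not explain and that was not used. A gene table of smoothed, aligned values was not used. Columns that matched no sample numbered 0.

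Members were chosen by the rule in the report's opening, and the members and lists were chosen with earlier results of these data known. The TSCs named were the 20 highest members, the 3 highest for each hour of the maximum, the 10 with the largest share, those next to the limits, the 5 genes whose member share changed most, and runs of at least 3 neighbouring members; others were named after their values were seen. Shares of reads have 95% Wilson intervals. Change over time was fitted on log2(RPM + 1) by limma 3.58.1 with its trend option, as a natural cubic spline (4 df), after filterByExpr of edgeR 4.0.16 with a minimum count of 10. The edgeR quasi-likelihood test and the DESeq2 1.42.0 likelihood ratio test on the recovered reads, other limits, scalings and left-out libraries were alternatives. The limma step was tested on simulated data. R 4.3.3 and Python 3.11.15 were used. Of the members' gene identifiers, 0 matched the RefSeq table at hand, so gene lists fixed by name, motifs and sequences were not analysed here.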

Additional observations from a re-analysis of the deposited data

Results flagged for a closer look

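Signal that met the same limits was present in TSCs that carry no gene and so had no part in the rule. Of the 1256 TSCs without a gene that reached 20 RPM, 78 (6.21%) had more than 50% of their RPM at 11-15 h, against 1.57% of the gene-assigned TSCs. The 78 had a median maximum of 44.8 RPM and a median share of 60.5%. They were highest at 14-15 h in 29 cases, at 11-12 h and at 12-13 h in 17 each, at 13-14 h in 13 and at 10-11 h in 2. The strongest lay at 10787052 to 10787214 of scaffold 4770 on the minus strand and measured 80.8 RPM at 10-11 h, 270 at 11-12 h, 928 at 12-13 h, 1520 at 13-14 h, 2195 at 14-15 h, then 1627 at 15-16 h. The nearest member was 12845 bp away on the same strand, reached 40.4 RPM and was also highest at 14-15 h. Of the 78, 6 lay within 2000 bp of a member, all on its strand, and 55 lay over 100 kb from one or on a scaffold without one. Some of the 78 rested mostly on 1 library. On scaffold 4845, that at 21564735 to 21564892 measured 6.07, 271, 0 and 30.9 RPM from 11-12 to 14-15 h. There too, that at 11996969 to 11996985 measured 39.5, 0, 0 and 0 RPM.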

How the results depend on the processing

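No paired analysis was possible because each time point has 1 sample. The number of members depended on the limits and the scaling. It was 298 with a share above 40% and 53 above 60%, 63 with TMM factors and 61 with DESeq2 size factors, 76 with a running mean over 3 libraries and 193 with TSCs that have no gene. TMM moved the log2 level of a library by -0.72 to 1.14, by -0.39 to -0.17 at 11-15 h and by 0.45 to 1.14 from 17-18 h on. Leaving out a library of the window, with its RPM out of both sums, can only lower a share, so the count could only fall. With 1 library left out it was 70 without 11-12 h, 67 without 12-13 h, 63 without 13-14 h and 59 without 14-15 h. An alternative chosen after seeing the data, without the shallow 12-13 and 14-15 h, gave 27. All of these were among the 115 except where a limit was relaxed, TSCs without a gene were added, or the running mean was used, where 75 of 76 were. Of the 20 strongest members, 16 had over 50% at 11-15 h with TMM, 14 with DESeq2 size factors and 18 over all 23 libraries. A limit of 10 or 40 RPM and all 23 libraries kept the count within 1.5 times. The members' mean share of reads at 11-15 h was 2.81% without the reads of the 10 highest TSCs of each library and, chosen after seeing the data, 2.54% without the strongest member, against 3.80%. The count of TSCs that changed over time stayed within 1.5 times, between 9378 and 16046, and that of members among them between 112 and 115. The member's part was higher at 11-15 h in 37 genes without 4-5, 5-6 and 7-8 h and in 40 with summed RPM, chosen after seeing the data, and higher by at least 25 points in 12 of them, against 15 with pooled reads. Depth limited the weakest members and the library of 7-8 h.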
